A study of Mus musculus with 6 samples.

Results

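Unfolded protein and amino acid stress genes were examined in the distal colon of ChREBP knockout and wild-type (WT) mice. The 34 genes were chosen by symbol out of 19844 in the table, and all 34 were found. By role they comprised 14 ER chaperones and folding factors, 4 genes of ER-associated degradation (ERAD), 5 sensors of the unfolded protein response with the factors they control, the transcription factor gene Atf4 and 10 targets of ATF4. The tissue came from C57BL6 mice on day 17 of treatment with azoxymethane, a carcinogen, and dextran sulfate sodium, which injures the colon lining, and both genotypes had received this treatment. There were 3 knockout and 3 WT libraries. ChREBP, the product of Mlxipl, is a transcription factor that responds to glucose. Neither the age of the mice nor the construction of the knockout allele is stated in the labels. Values are FPKM (fragments scaled for transcript length and sequencing depth), a scale on which levels of different genes can be compared, as means ± SD with n = 3 per genotype.

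Secreted and membrane proteins fold in the endoplasmic reticulum (ER), and the load is heavy in the mucus-secreting goblet cells and the antibody-secreting plasma cells of the colon. When unfolded proteins accumulate, the sensors IRE1 (Ern1 and, in mucosal epithelium, Ern2), ATF6 and PERK (Eif2ak3) raise the folding and disposal capacity of the ER. PERK and other kinases of the translation factor eIF2 also reduce protein synthesis while favouring translation of ATF4. ATF4 then induces genes of amino acid synthesis and of the stress response, and it also does so when amino acids are scarce and the ER is not stressed.

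The promoters of these genes are shown because the known response elements of the chaperone and ATF4 branches can be read in them. RefSeq windows on the GRCm38.p6 build, from 250 bases before to 50 bases after the transcription start, matched 30 of the 34 genes, and both strands were searched. The ER stress response element ERSE, spelled CCAAT, then any 9 bases, then CCACG, was present for 7 of 12 chaperone genes (Hspa5, Hsp90b1, Calr, Canx, Pdia6, Dnajc3 and Creld2), for the ERAD gene Syvn1 and for 0 of 10 ATF4 targets. Over the genome it was present in 0.119% of all 32851 windows, or for 0.137% of 27025 genes. The shorter ERSE-II, ATTGG, then any 1 base, then CCACG, was found for Herpud1 and Dnajb11, against 0.0365% of all windows and 0.0444% of genes. The C/EBP-ATF response element CARE, searched as TGATGNAAN, was found for 3 of 10 ATF4 targets (Asns, Chac1 and Trib3), for Herpud1 and for 0 of 12 chaperone genes. Its share was 3.95% of all windows and 4.50% of genes. The XBP1 element TGACGTGG was found for 0 of the 30 genes, against 0.676% of all windows and 0.714% of genes. A match is a match of letters and says nothing about binding here. The elements were searched because they are already known for these branches, so the counts are a description and not a test.

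The 250 bases before the start are given 5′ to 3′ on the gene's strand for 3 chaperone genes, for Herpud1, which holds letters of both kinds, and for 2 ATF4 targets. To check the starts, bases just after each were sought in annotated (GENCODE) transcripts of the same gene. They were found for every gene shown except Herpud1. The windows are Hspa5 at chr2:34771840-34772089 (plus strand), Hsp90b1 at chr10:86705445-86705694 (minus strand), Calr at chr8:84846932-84847181 (minus strand), Herpud1 at chr8:94386179-94386428 (plus strand), Asns at chr6:7693210-7693459 (minus strand) and Chac1 at chr2:119350992-119351241 (plus strand). Capitals mark ERSE in the chaperone genes, CARE and then ERSE-II in Herpud1, and CARE in Asns and Chac1.
Hspa5: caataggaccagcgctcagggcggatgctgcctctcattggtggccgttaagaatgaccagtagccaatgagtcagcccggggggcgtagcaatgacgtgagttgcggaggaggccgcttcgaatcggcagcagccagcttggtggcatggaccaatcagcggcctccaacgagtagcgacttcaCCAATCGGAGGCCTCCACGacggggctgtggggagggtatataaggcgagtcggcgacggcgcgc
Hsp90b1: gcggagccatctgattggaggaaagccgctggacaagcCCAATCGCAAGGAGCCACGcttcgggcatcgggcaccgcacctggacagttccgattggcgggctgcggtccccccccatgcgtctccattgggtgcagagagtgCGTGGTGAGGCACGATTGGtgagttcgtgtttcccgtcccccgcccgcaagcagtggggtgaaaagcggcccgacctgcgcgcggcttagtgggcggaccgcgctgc
Calr: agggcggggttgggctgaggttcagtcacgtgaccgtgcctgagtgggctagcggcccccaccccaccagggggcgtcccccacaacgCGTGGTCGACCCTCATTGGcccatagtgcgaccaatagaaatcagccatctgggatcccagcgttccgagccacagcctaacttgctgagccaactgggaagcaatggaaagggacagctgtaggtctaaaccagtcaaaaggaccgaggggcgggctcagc
Herpud1: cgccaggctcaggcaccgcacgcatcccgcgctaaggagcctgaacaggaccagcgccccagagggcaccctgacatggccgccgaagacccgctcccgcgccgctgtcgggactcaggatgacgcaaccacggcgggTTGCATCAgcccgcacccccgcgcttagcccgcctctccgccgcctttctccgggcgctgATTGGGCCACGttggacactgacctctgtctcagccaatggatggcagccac
Asns: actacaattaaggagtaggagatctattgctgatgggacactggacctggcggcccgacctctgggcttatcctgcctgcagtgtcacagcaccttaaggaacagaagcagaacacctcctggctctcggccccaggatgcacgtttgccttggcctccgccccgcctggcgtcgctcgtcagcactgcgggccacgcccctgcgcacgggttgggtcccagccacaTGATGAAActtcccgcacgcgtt
Chac1: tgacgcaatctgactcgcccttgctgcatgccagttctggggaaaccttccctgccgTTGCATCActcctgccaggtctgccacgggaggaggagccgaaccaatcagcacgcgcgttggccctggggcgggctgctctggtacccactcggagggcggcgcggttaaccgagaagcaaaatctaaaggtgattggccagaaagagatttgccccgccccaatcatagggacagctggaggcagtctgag
Hsp90b1 carries ERSE in both orientations. The exact ERSE match of Hspa5 begins 65 bases before the start, and the CARE match of Asns begins 23 bases before it. Looser matches were not sought.

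Several libraries stood apart before any comparison. Mlxipl, the targeted gene, read 3.40, 5.66 and 5.04 FPKM in knockout replicates 1 to 3, against 5.84, 7.49 and 7.27 FPKM in WT replicates 1 to 3, so the knockout mean was 68.4% of the WT mean and the transcript was still present. All 6 mice are labelled female, yet the Y-linked Ddx3y lay between 9.51 and 12.11 FPKM and Xist between 0.02 and 0.04 FPKM. WT replicate 3 held transcripts of the exocrine pancreas, an organ rich in ER chaperones. Of the planned list of 4 genes, Pnlip, pancreatic lipase, was at 116 FPKM and Cpa1, a carboxypeptidase, at 124 FPKM. The other 5 libraries lay between 0 and 0.27 and between 0 and 0.22. Prss2 was at 89.05 FPKM in WT replicate 3 and at most 0.21 elsewhere. The remaining gene of the list, Cela1, was high in every library, at 254 FPKM in WT replicate 3 and 112 to 185 FPKM elsewhere. Of 5 genes looked up after these values were seen, Ctrb1, Amy2a5, Cela2a and Pdia2 were placed like Pnlip. Ctrb1 was at 571 FPKM in WT replicate 3 and at most 0.73 elsewhere, and the pancreatic disulfide isomerase gene Pdia2 at 3.41 FPKM and at most 0.10 elsewhere. The fifth, the acinar transcription factor gene Bhlha15, read 1.90 FPKM in WT replicate 3, within the 1.05 to 3.09 FPKM of the other libraries. Knockout replicate 3 was low in secretory cell markers, with 10 goblet cell genes summing to 8662 FPKM, against 12409 and 14705 in the other knockouts and 11288 to 14685 in WT. The 8 plasma cell genes summed to 195 FPKM in knockout replicate 3, 298 and 478 in the other knockouts and 415 to 474 in WT, and no marker of either list was at 0. The same library had the highest sum of 6 smooth muscle genes, 4242 FPKM against 2794 and 3004 in the other knockouts and 2616 to 3576 in WT. The 5 B cell genes summed to 73.4, 62.2 and 51.3 FPKM in knockout replicates 1 to 3, against 77.3, 113 and 21.1 FPKM in WT replicates 1 to 3. Knockout replicate 1 had the highest sum of 5 neutrophil genes, 20.1 FPKM against 6.39 and 9.09 in the other knockouts and 6.32 to 7.89 in WT. S100a8, S100a9 and Mmp9 were highest in that library. Csf3r and Cxcr2 were not, at 2.51 and 2.74 FPKM there against highest values of 2.58 and 3.43 FPKM. The 11 colon epithelial markers, Epcam and Krt20 among them, were all well expressed, summing to between 6101 and 7077 FPKM in knockout and between 5909 and 7218 in WT. Within the preset range that was searched, the libraries held an estimated 17675000 to 18450000 reads, from the steps of 1 read that short genes show.

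No gene of the set passed the test of genotype. On log2(FPKM + 1), limma with Benjamini-Hochberg adjustment over 13247 genes called 0 of 33 tested members at an adjusted p under 0.05 (adjusted p = 0.9995 for each of the 33), where 0.0151% of all genes were called. At an unadjusted p under 0.05 the count was 1 of 33 members, Edem1, against 3.40% of all genes. The 34th member, Trib3, lay below 1 FPKM in every library and was not tested. The 3 knockout values lay wholly apart from the 3 WT values in 1 of the 33, Edem1 again, against 8.67% of all genes, or 4.14% in the direction lower in knockout. Fold changes below are knockout minus WT on the log2(FPKM + 1) scale, where differences of genes at low FPKM are compressed. For all 33 tested members the 95% interval lay within a doubling or halving on that scale. The same held for 12846 of all 13247 tested genes. Replicates are separate mice according to the series design.

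**Figure D1:**
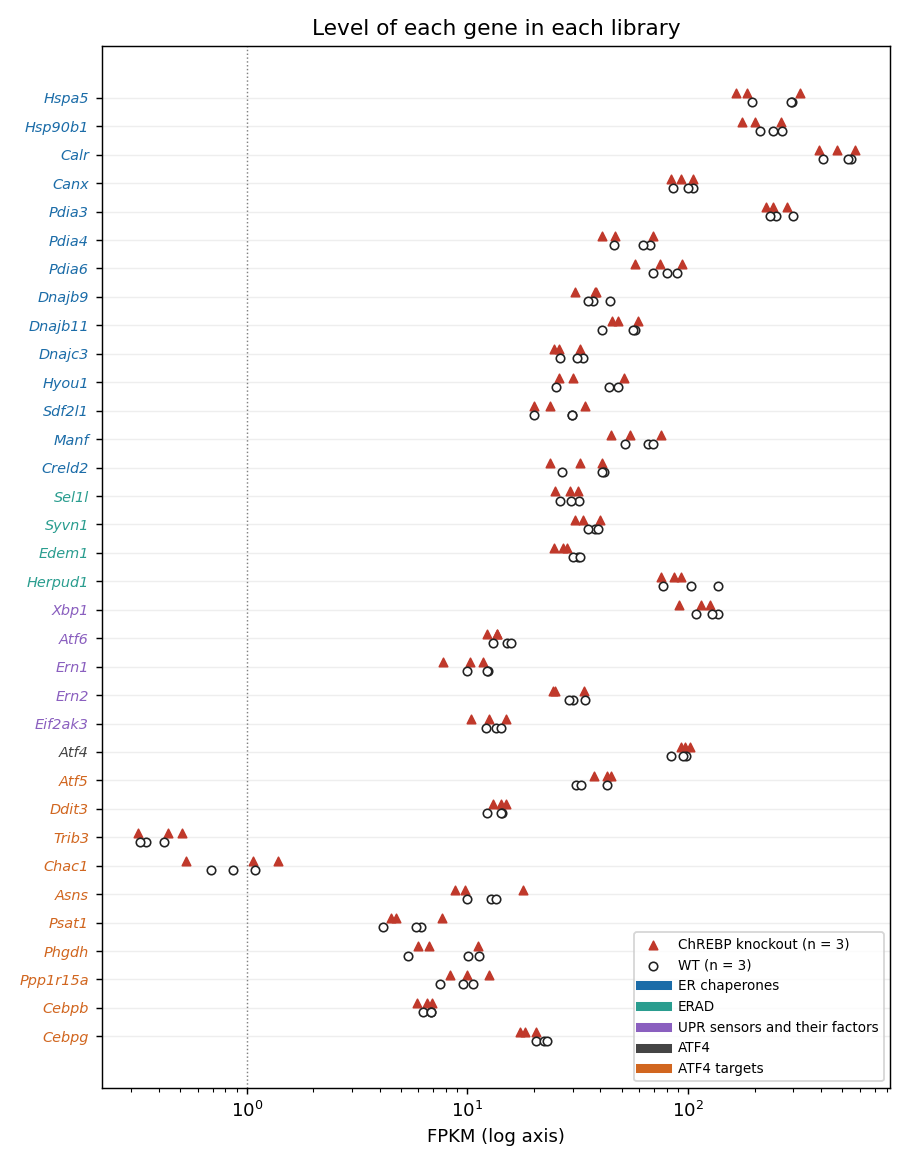
FPKM of the 34 genes on a log axis, with 1 point per library, filled triangles for ChREBP knockout and open circles for WT, and gene names coloured by role. Levels ran from about the 0.32 to 0.51 FPKM of Trib3 to the 394 to 569 FPKM of Calr, and the genotypes overlapped in every gene except Edem1.

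The ER chaperones were abundant transcripts, each above at least 84.5% of genes in the table, and varied widely between mice of 1 genotype. Summed over the 14 genes they took between 0.318% and 0.464% of all FPKM in a library. The sum was 2037, 1525 and 1405 FPKM in knockout replicates 1 to 3, against 1986, 1868 and 1480 FPKM in WT replicates 1 to 3. Knockout replicate 1 thus stood with WT replicates 1 and 2, and WT replicate 3 with knockout replicates 2 and 3, so that the genotypes overlapped. The B cell sums given above were likewise highest in knockout replicate 1 and WT replicates 1 and 2. Goblet and plasma cell sums had another order, and both were highest in knockout replicate 2 and WT replicate 3. In these libraries the goblet cell sums were 14705 and 14685 FPKM, and the plasma cell sums 478 and 474 FPKM. The epithelial marker sum was 7077, 6101 and 6604 FPKM in knockout replicates 1 to 3, against 7218, 6554 and 5909 FPKM in WT replicates 1 to 3, and was highest in knockout replicate 1 and WT replicate 1. The part of these cell types in the chaperone values was not tested. In bulk tissue, fewer cells of a type and less RNA per cell cannot be told apart.

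Hspa5 (NCBI gene 14828) encodes BiP, the ER member of the HSP70 family, which binds unfolded chains and holds the stress sensors inactive. It read 322.73, 164.94 and 185.78 FPKM in knockout, against 296.25, 291.69 and 195.03 FPKM in WT. The highest and the lowest of the 6 values both belonged to knockout mice. Its mean was 224 ± 85.7 FPKM in knockout and 261 ± 57.2 in WT, a log2 fold change of -0.26 (SE 0.27, 95% interval -0.87 to 0.36). It was -0.45 without WT replicate 3 and lay between -0.55 and -0.07 over all omissions of 1 library. Hsp90b1, the ER form of HSP90 known as GRP94, read 264.89, 202.09 and 175.15 FPKM in knockout, against 266.94, 241.76 and 212.78 FPKM in WT (log2 fold change -0.18, SE 0.16). Hyou1, a large HSP70-like protein that serves BiP as an exchange factor, had the widest spread of the group, 51.06, 26.09 and 30.15 FPKM in knockout against 44.00, 48.16 and 25.33 FPKM in WT. The highest Hyou1 value was 2.02 times the lowest, and they came from knockout replicate 1 and WT replicate 3.

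Calr, calreticulin, which retains glycoproteins until they are folded, was the most abundant member at 479 ± 87.6 FPKM in knockout and 495 ± 75.1 in WT, above 99.3% of genes in the table. The lectin Canx, its membrane-bound relative calnexin, was at 94.2 ± 10.98 FPKM in knockout and 96.9 ± 10.1 in WT. Their log2 fold changes were -0.05 (95% interval -0.45 to 0.34) and -0.04 (-0.32 to 0.24). Among the disulfide isomerases, Pdia3 (ERp57), the partner of calreticulin and calnexin, was at 250 ± 28.2 FPKM in knockout and 261 ± 32.2 in WT. Pdia4 was at 52.2 ± 15.0 FPKM in knockout and 58.4 ± 11.1 in WT, and Pdia6 at 75.3 ± 18.3 and 79.7 ± 9.85.

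The J-domain cochaperones, which pass clients to BiP, covered a range of behaviour. Dnajb9 (ERdj4), a target of the IRE1-XBP1 arm, read 37.77, 30.88 and 38.45 FPKM in knockout, against 44.20, 37.13 and 35.21 FPKM in WT (log2 fold change -0.12, SE 0.13). Unlike Hspa5, its knockout replicate 1 was not the highest library and its knockout replicate 3 was not low. Dnajb11 was at 51.0 ± 7.56 FPKM in knockout and 51.6 ± 9.26 in WT, and Dnajc3, also known as an inhibitor of eIF2 kinases, at 27.8 ± 4.10 FPKM in knockout and 30.3 ± 3.67 in WT. Manf, a trophic factor held in the ER, read 75.37, 54.56 and 44.63 FPKM in knockout, against 65.84, 69.01 and 51.53 FPKM in WT, and Creld2 read 40.62, 32.45 and 23.59 FPKM in knockout, against 41.51, 40.67 and 26.84 FPKM in WT. In both, as in Hspa5, the highest 3 values were those of knockout replicate 1 and WT replicates 1 and 2. Sdf2l1, a component of a chaperone complex with BiP, was at 26.0 ± 7.32 FPKM in knockout and 26.6 ± 5.63 in WT.

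All 14 chaperones had negative log2 fold changes, between -0.26 and -0.01 with a median of -0.12, where 47.3% of all tested genes were negative and the median was 0.01. The members share the same 6 libraries and are not independent, and 0 of the 14 had groups that did not overlap. The count rested on single mice. Without knockout replicate 3, the library low in goblet and plasma cell markers, 7 of 14 were negative and the median was -0.01. Without WT replicate 1 it was 9 of 14 (median -0.03), and without WT replicate 2 it was 10 of 14 (median -0.09). Without knockout replicate 2 it was 10 of 14 (median -0.05). Knockout replicate 2 had the highest goblet and plasma cell sums, 14705 and 478 FPKM, and WT replicate 3 came next with 14685 and 474 FPKM. Their chaperone sums were nevertheless low, 1525 and 1480 FPKM, like the 1405 FPKM of knockout replicate 3. Without WT replicate 3, the library with pancreatic transcripts, all 14 remained negative with a median of -0.22, and without knockout replicate 1 all 14 did with a median of -0.26. The part of the secretory cell markers and of the pancreatic transcripts in these values was not tested.

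Variation between mice of 1 genotype was larger for the chaperones than for the typical gene. The median SD within genotype was 0.26 on the log2(FPKM + 1) scale over the 14 chaperones, against 0.16 over all 13247 tested genes, and the median SE of the fold change was 0.18, against 0.13. This was not particular to the chaperones, since the 9 tested ATF4 targets had a median SD of 0.25 and a median SE of 0.17. Knockout replicate 1 was the highest library for 9 of the 14 chaperones and WT replicate 1 for the other 5, whereas those libraries were the highest for 17.3% and 10.8% of all tested genes. The lowest library was knockout replicate 3 for 6 chaperones, knockout replicate 2 for 5 and WT replicate 3 for 3. WT replicate 2 was neither the highest nor the lowest library for any chaperone.

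**Figure D2:**
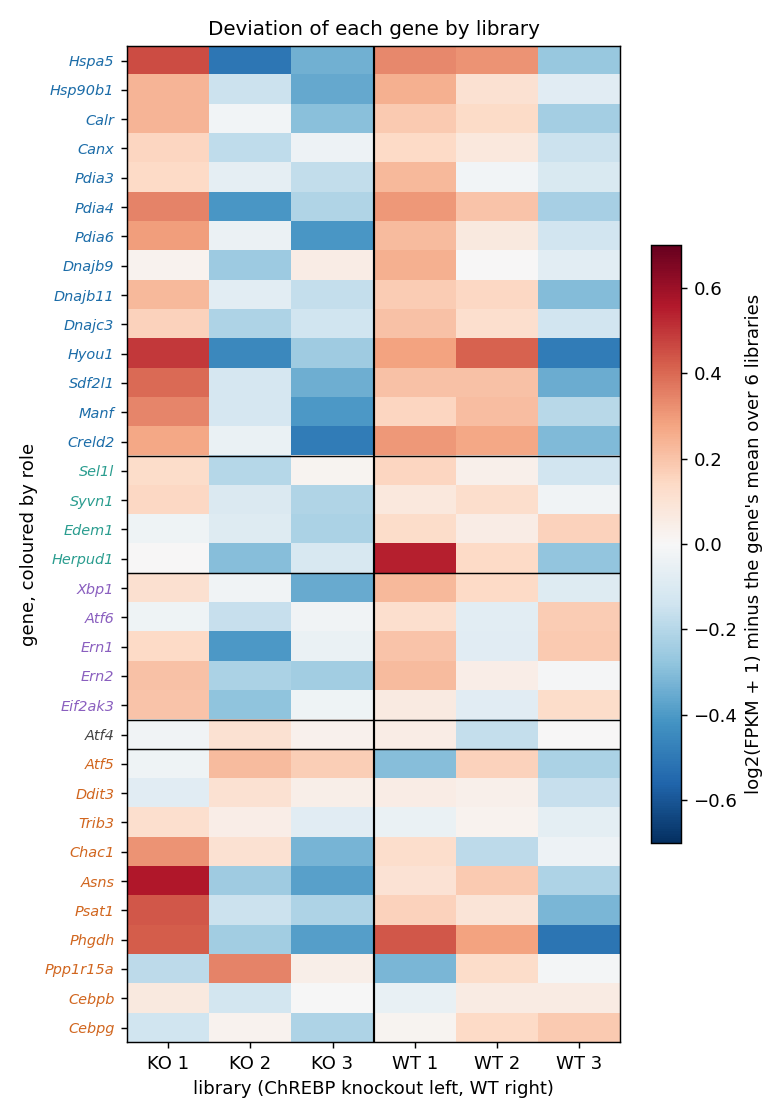
Deviation of each gene from its own mean over the 6 libraries, on the log2(FPKM + 1) scale, with ChREBP knockout libraries left of WT and horizontal lines between roles. Knockout replicate 1 and WT replicates 1 and 2 were above the mean for nearly all chaperones, and Asns, Psat1 and Phgdh were coloured like the chaperones and not like Atf5 or Ppp1r15a.

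The ERAD genes, which recognise misfolded proteins and return them to the cytosol for degradation, included the only member with separate groups. Edem1 (NCBI gene 192193), a mannosidase-like lectin that extracts misfolded glycoproteins from the folding cycle, read 28.27, 27.06 and 24.64 FPKM in knockout, against 31.73, 30.00 and 32.49 FPKM in WT. Every knockout value was below every WT value, and the nearest were 28.27 FPKM in knockout replicate 1 and 30.00 FPKM in WT replicate 2. The means were 26.7 ± 1.85 FPKM in knockout and 31.4 ± 1.28 in WT, or 84.9% of WT, with a log2 fold change of -0.23 (SE 0.09, 95% interval -0.44 to -0.02). The difference was not called (limma adjusted p = 0.9995, unadjusted p = 0.0381). Over the fits that left out 1 library the fold change stayed between -0.27 and -0.18, and it was -0.21 without WT replicate 3.

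Herpud1, a membrane protein of the degradation complex and a sensitive readout of ER stress, read 93.27, 75.73 and 86.05 FPKM in knockout, against 136.66, 102.84 and 76.81 FPKM in WT. WT replicate 1 stood far above the rest while WT replicate 3 lay among the knockouts. The log2 fold change was -0.27 (SE 0.20, 95% interval -0.73 to 0.18), and over the omissions of 1 library it ran from -0.48 to -0.07, the last without WT replicate 1. The ubiquitin ligase Syvn1 (HRD1) was at 34.7 ± 4.56 FPKM in knockout and 37.4 ± 1.99 in WT, and its adaptor Sel1l at 28.6 ± 3.38 FPKM in knockout and 29.3 ± 2.93 in WT. The fold change of Sel1l was -0.03, and its sign depended on the library left out. All 4 ERAD genes had negative fold changes, with a median of -0.17.

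Among the sensors and their factors, all 5 log2 fold changes were negative (median -0.17) and the genotypes overlapped in all 5. Xbp1, whose transcript IRE1 splices to yield an activator of chaperone and ERAD genes, read 125.63, 114.20 and 90.82 FPKM in knockout, against 136.13, 128.05 and 109.14 FPKM in WT (log2 fold change -0.18, SE 0.14). These are levels of the whole gene and do not separate the spliced form. Ern1, the widely expressed IRE1 alpha, read 11.82, 7.79 and 10.26 FPKM in knockout, against 12.35, 10 and 12.21 FPKM in WT (log2 fold change -0.20, SE 0.16). Ern2, the IRE1 beta of goblet cells and mucosal epithelium, read 33.79, 24.82 and 24.46 FPKM in knockout, against 34.11, 30.16 and 28.97 FPKM in WT (log2 fold change -0.17, SE 0.14).

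The mucosal form was the more abundant of the IRE1 genes in every mouse. The ratio of Ern2 to Ern1 in FPKM was 2.81 ± 0.403 in knockout and 2.72 ± 0.324 in WT, and ranged from 2.37 to 3.19 over the 6 libraries. Atf6, the sensor that is cleaved in the Golgi to release a transcription factor, was at 13.2 ± 0.768 FPKM in knockout and 14.7 ± 1.41 in WT. Eif2ak3, the gene of PERK, was at 12.6 ± 2.27 FPKM in knockout and 13.2 ± 1.03 in WT. WT replicate 3, low for the chaperones, was the highest library for Atf6 at 15.82 FPKM and second to knockout replicate 1 for Eif2ak3 at 14.14 FPKM.

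Atf4 (NCBI gene 11911) was among the steadiest members. It read 92.87, 101.87 and 96.70 FPKM in knockout, against 97.96, 84.07 and 94.83 FPKM in WT, and the highest value was 1.21 times the lowest. The log2 fold change was 0.08 (SE 0.10, 95% interval -0.15 to 0.30). ATF4 protein is set largely by translation, which these values do not measure. The ratio of Hspa5 to Atf4 ranged from 1.62 in knockout replicate 2 to 3.48 in knockout replicate 1, averaging 2.34 ± 0.996 in knockout and 2.85 ± 0.722 in WT.

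The ATF4 targets did not behave as 1 group. Of the 9 tested, 5 had positive and 4 negative log2 fold changes, between -0.23 and 0.24 with a median of 0.05, and the genotypes overlapped in all 9. Without WT replicate 3 the count was 6 negative of 9, with a median of -0.02, and without knockout replicate 1 it was also 6 of 9, with a median of -0.09. Their summed level was 118 ± 6.25 FPKM in knockout and 114 ± 11.5 in WT.

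The enzymes of amino acid synthesis, set apart here after their values had been seen, were distributed over the libraries like the chaperones. Asns, asparagine synthetase and the classical readout of amino acid shortage, read 17.87, 9.76 and 8.83 FPKM in knockout, against 12.74, 13.51 and 10 FPKM in WT. Phgdh, the first enzyme of serine synthesis from glycolytic carbon, read 11.21, 6.67 and 5.95 FPKM in knockout, against 11.29, 10.07 and 5.38 FPKM in WT. Psat1, the next enzyme of that path, read 7.65, 4.77 and 4.52 FPKM in knockout, against 6.15, 5.82 and 4.14 FPKM in WT. In each of these genes knockout replicate 1 and WT replicates 1 and 2 held the highest 3 values, as they did for Hspa5. The genotypes overlapped in each, with log2 fold changes of -0.05 (95% interval -0.61 to 0.52) for Asns, -0.14 (-0.81 to 0.53) for Phgdh and 0.05 (-0.43 to 0.52) for Psat1.

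The stress-related targets did not follow that order, although knockout replicate 1 was the highest library for Chac1, Trib3 and Cebpb. It was the highest for 5 of the 10 ATF4 targets. Atf5, a transcription factor linked to mitochondrial stress, had the highest fold change of the set, reading 37.44, 44.66 and 43.10 FPKM in knockout, against 30.90, 42.79 and 32.57 FPKM in WT (log2 fold change 0.24, SE 0.14, 95% interval -0.08 to 0.56). WT replicate 2 overlapped the knockouts. Ppp1r15a (GADD34), which returns phosphorylated eIF2 to its active state, read 8.37, 12.55 and 9.97 FPKM in knockout, against 7.53, 10.65 and 9.54 FPKM in WT (log2 fold change 0.14, SE 0.17). In both genes knockout replicate 2 was the highest library and WT replicate 1 the lowest. Ddit3 (CHOP), a factor associated with cell death under prolonged ER stress, read 13.03, 14.96 and 14.21 FPKM in knockout, against 14.31, 14.18 and 12.25 FPKM in WT (log2 fold change 0.05, SE 0.11).

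Among the C/EBP factors, which pair with ATF4 on its response element, Cebpg read 18.22, 20.54 and 17.23 FPKM in knockout, against 20.46, 22.35 and 23.06 FPKM in WT. The groups met at 20.54 and 20.46 FPKM, and the log2 fold change was -0.23 (SE 0.10, 95% interval -0.46 to 0.01, limma adjusted p = 0.9995). Cebpb was at 6.46 ± 0.511 FPKM in knockout and 6.67 ± 0.326 in WT. Chac1, a glutathione-degrading enzyme gene strongly induced by ATF4, read 1.39, 1.07 and 0.53 FPKM in knockout, against 1.09, 0.69 and 0.87 FPKM in WT. Trib3, a pseudokinase and another sensitive ATF4 target, read 0.51, 0.44 and 0.32 FPKM in knockout, against 0.35, 0.42 and 0.33 FPKM in WT. Both were low in all 6 mice, near or below the 1 FPKM of the filter, which Chac1 passed with 3 libraries at or above 1 FPKM.

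**Figure D3:**
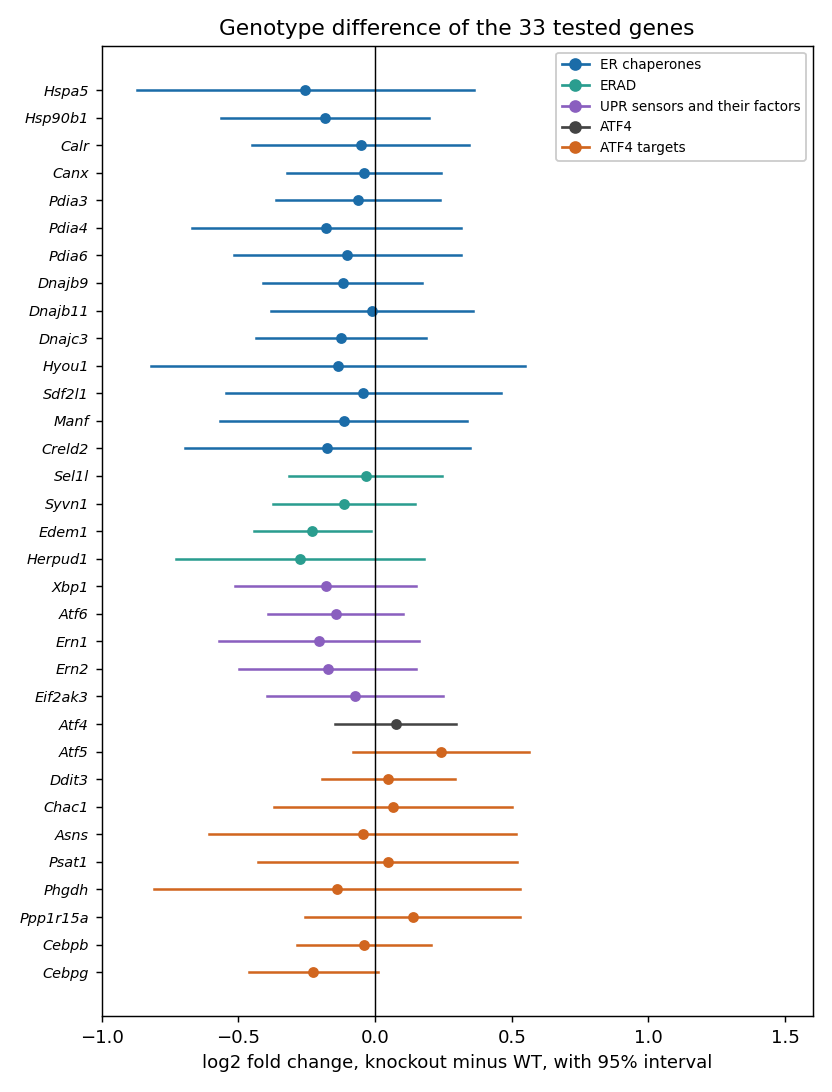
Log2 fold change, knockout minus WT, on the log2(FPKM + 1) scale for the 33 tested genes with limma 95% intervals, coloured by role. All chaperone, ERAD and sensor points lay left of 0 and ATF4 targets lay on both sides, and every interval except that of Edem1 included 0.

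The contrast between chaperones and ATF4 targets was computed per library as the mean deviation over the 14 chaperones minus that over the 10 targets, on the log2(FPKM + 1) scale. It was 0.12, -0.20 and -0.12 in knockout replicates 1 to 3, against 0.21, 0.07 and -0.09 in WT replicates 1 to 3. The groups overlapped, and the difference of the means, -0.13, was smaller than the pooled SD of 0.16 within genotype. Over the omissions of single libraries it lay between -0.22 and -0.05, and it was -0.20 without WT replicate 3. Taken alone, the chaperone mean deviation was -0.06 ± 0.29 in knockout and 0.06 ± 0.24 in WT, and that of the ATF4 targets was 0.01 ± 0.14 in knockout and -0.01 ± 0.11 in WT. Over the libraries the mean deviation of the chaperones spanned 0.52, and that of the ATF4 targets spanned 0.28. Single genes of both groups varied alike within genotype, with a median SD of 0.26 for the chaperones and 0.25 for the 9 tested ATF4 targets. No p is given, since the members of each group are not replicates.

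**Figure D4:**
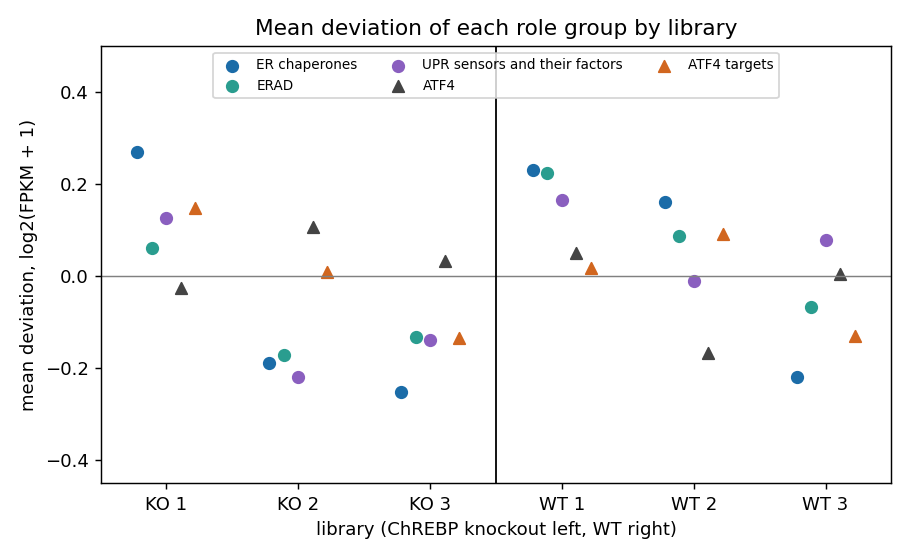
Mean deviation of each role group from its gene means, on the log2(FPKM + 1) scale, by library, with ChREBP knockout left of WT, circles for the ER groups and triangles for Atf4 and its targets. The chaperone mean ranged from -0.25 in knockout replicate 3 to 0.27 in knockout replicate 1, a wider span than that of the ATF4 target mean, and both genotypes held high and low libraries.

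Other genes of the same pathways gave little more. Of 98 further pathway genes 97 were tested, 0 were called by limma over all genes, 2 had an unadjusted p under 0.05, against 3.40% of all genes, 43 fold changes were positive and 54 (55.7%) negative, against 47.3% negative over all genes, and the median was -0.02. The genotypes did not overlap in 6 of the 97, 2 higher and 4 lower in knockout, against 8.67% of all genes. These were Ddit4 and Os9 (higher) and Ppp1r15b, Gdf15, Derl1 and Rtcb (lower), with Os9, Derl1 and Rtcb named after their values were seen. Of 26 further folding and translocation genes 11 were positive and 15 negative (median -0.005), and the smallest p was that of the translocon subunit Sec61g at 36.0 ± 3.51 FPKM in knockout and 32.2 ± 0.585 in WT. Signs in that list were therefore mixed. Of 17 further ERAD genes 7 were positive and 10 negative (median -0.02). Derl3, a channel component that is also on the plasma cell list, read 4.09, 7.84 and 2.01 FPKM in knockout, against 7.21, 6.78 and 8.02 FPKM in WT, and was lowest in the library with the fewest plasma cell transcripts. Of 12 further factors 6 were positive and 6 negative, among them Creb3l1, an ER-bound transcription factor of secretory cells, at 195 ± 21.7 FPKM in knockout and 220 ± 25.8 in WT.

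The eIF2 branch and the wider ATF4 targets held the genes of smallest p. Ppp1r15b (CReP), the constitutive counterpart of Ppp1r15a, read 38.74, 30.20 and 31.33 FPKM in knockout, against 42.62, 42.22 and 43.44 FPKM in WT. The groups did not overlap, and the log2 fold change of -0.35 (SE 0.11, 95% interval -0.61 to -0.10) was not called (limma adjusted p = 0.9995, unadjusted p = 0.0129). Across the 12 further eIF2 kinases, eIF2 and eIF2B genes 6 were positive and 6 negative. Of 30 tested further ATF4 targets, a list of amino acid supply genes that also holds stress response genes, 13 were positive and 17 negative (median -0.02). Nupr1, a stress-induced chromatin protein, read 139.40, 191.81 and 127.38 FPKM in knockout, against 92.35, 92.21 and 141.23 FPKM in WT (log2 fold change 0.50, SE 0.21, limma adjusted p = 0.9995). Here WT replicate 3 lay among the knockouts. Ddit4 (REDD1), an inhibitor of mTORC1 that is also induced by hypoxia, read 34.50, 33.45 and 39.44 FPKM in knockout, against 31.84, 31.69 and 18.81 FPKM in WT, and its groups did not overlap (log2 fold change 0.41, SE 0.20). The low value of 18.81 FPKM was that of WT replicate 3, the library with pancreatic transcripts, and the other WT values lay close to the lowest knockout value. Gdf15, a secreted stress signal, read 1.18, 2.47 and 2.19 FPKM in knockout, against 2.60, 3.27 and 2.77 FPKM in WT, also without overlap but in the other direction (log2 fold change -0.42, SE 0.19).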

How the data were processed

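The authors deposited 1 table of FPKM values for 6 distal colon libraries and 19844 genes. Per the submitters' processing notes HISAT2, RSEM and the mm39 build were used, with versions and filters not given in the sources used here. Per the labels' protocols the RNA was poly-A selected and no step marks strand, so overlapping antisense reads cannot be told apart. Members were matched by symbol (34 of 34), and other list genes by symbol or synonym. The test used genes that reached 1 FPKM in 3 or more libraries and ran on log2(FPKM + 1) in limma (version 3.58.1, R 4.3.3; mean-variance trend, two-sided, genotype only, Benjamini-Hochberg over 13247 genes, threshold 0.05). The fit was run on simulated data with independent noise and planted changes of at least a doubling or halving. These were larger than any change of a member, so the run does not measure the power to find changes of the members' size. Depth was estimated from 383 non-coding genes of up to 150 bases, where 68.7% to 86.7% of 128 to 182 values per library lay within 0.05 of a whole read. Only a preset range of depths was searched, so a depth outside it could not have been returned. Per-library values are printed for Mlxipl, the usual readouts and up to 4 members per role by smallest p, and for others that carry a described pattern, which were chosen after their values were seen. Of each further list up to 3 genes by smallest p could be named. The members and lists were chosen with earlier results of these data known. Protein sequences were not used here. Python 3.11.15, numpy 2.4.6, pandas 2.3.3 and matplotlib 3.10.9 were used.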

Additional observations from a re-analysis of the deposited data

How the results depend on the processing

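Limma called 2 genes and 0 members in the comparison as reported, and 0 members under every alternative run (pseudocount 0.1, no filter, same total FPKM, median of ratios, no mean-variance trend, replicate block and 6 omissions of a library), with 0 to 4 members at an unadjusted p under 0.05. The number of genes called was 0 with the replicate block and between 0 and 1 when a library was left out. Replicate numbers are not stated to pair the samples. Deviations of same-numbered libraries correlated across genes at 0.27, -0.10 and 0.06, and those of differently numbered libraries at -0.29 to 0.25. With the replicate block limma called 0 genes and had 504 at an unadjusted p under 0.05, against 450 in the comparison as reported. Deviations of 3 libraries sum to 0 within a genotype, so these values cannot settle whether the samples were paired. Over the omissions of a library, the median log2 fold change of the ATF4 targets ran from -0.085 to 0.13, and of the 20 tested members named by rule, 6 changed sign: Asns (-0.34 to 0.13), Phgdh (-0.43 to 0.044), Chac1 (-0.076 to 0.25), Ddit3 (-0.019 to 0.099), Ppp1r15a (-0.0024 to 0.26) and Sel1l (-0.11 to 0.056). Members with negative fold changes numbered 27 of 33 as reported and between 18 and 29 over these omissions, so further members changed sign. The cause was not tested. In the other 6 alternatives 0 of 120 values of named members changed sign. Rescaling moved the median of all genes to -0.01 at most. Values near 1 FPKM (Trib3, Chac1) are limited by depth.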
